A study of Mus musculus with 3 samples.

Results

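The genes described here are 10 members of the matrix metalloproteinase (MMP) system, 4 tissue inhibitors of metalloproteinases (*Timp1*, *Timp2*, *Timp3* and *Timp4*) and 6 metalloproteinases (*Mmp2*, *Mmp3*, *Mmp14*, *Mmp19*, *Mmp12* and *Mmp9*), out of 32285 genes counted. They were measured by single-cell RNA-Seq in mononuclear cells of mouse diaphragm. The members were chosen with their levels by cell class, cell state and library in view, so these levels are given as a description and none was put to a test. WT CD was C57Bl/6J mice kept on control diet for 6 months. WT HFD was C57Bl/6J mice given a high-fat diet, with 45% of its energy from lipid, for 6 months. KO HFD was B6.129S2-Thbs1tm1Hyn/J mice, which lack *Thbs1* in the whole body, on the same high-fat diet for 6 months. All mice were male and 2 months old when the diets began, and each of the 3 libraries pooled the costal diaphragms of 2 mice. With 1 library per group there was no replicate spread. Diet or genotype, the mice, and the library preparation cannot be told apart in any difference between libraries.

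MMPs are zinc-dependent proteases that cut collagens, proteoglycans and other extracellular matrix (ECM) proteins. Most are secreted as inactive precursors, and TIMPs block the active enzymes by binding to their catalytic site. In muscle, much of the matrix is made and turned over by fibroadipogenic progenitors (FAPs), the resident mesenchymal cells, while macrophages and neutrophils bring proteases of their own.

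The libraries held 4132, 3774 and 4369 cells for WT CD, WT HFD and KO HFD, with 34312860, 31967976 and 36478779 unique molecular identifiers (UMIs, each counting 1 captured transcript). Median UMIs per cell were 7632.5, 8041.5 and 7554, in the same order. The libraries shared few cell barcodes, 7 between WT CD and WT HFD, 7 between WT CD and KO HFD and 2 between WT HFD and KO HFD. Clusters were named from marker genes after leaving the 10 members out of the clustering. FAP-like cells numbered 2228, 1976 and 2396, or 53.9%, 52.4% and 54.8% of each library. Their 6 marker genes summed to 19415, 17427 and 19040 CPM (UMIs of a gene per 1000000 UMIs), led by *Dcn*. Macrophage-like cells numbered 231, 412 and 440. A level below is the CPM of UMIs summed over all cells of a class in 1 library. The 95% interval beside it covers counting error only, not spread between cells or variation between mice. The tags come from transcript 3' ends and carry no length scaling, so levels were compared between cells, not between genes.

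*Thbs1*, the gene deleted in the KO mice (chr2:118111876-118127133, plus strand, GRCm38), stood in FAP-like cells at 193 CPM in WT CD, 233 in WT HFD and 229.6 in KO HFD. Its 3' tags were thus as frequent, by level, in the library labelled KO HFD as in WT HFD. The share of positive FAP-like cells was 33.1%, 37.9% and 43.5%, highest in KO HFD. The tags read the 3' end of a transcript, so they check neither the deletion nor the label. In macrophage-like cells the levels were 105.5, 353 and 75.1 CPM, and in neutrophil-like cells 3761, 3740 and 1415 CPM. KO HFD was the lowest library by level in both of these classes, but its share of positive macrophage-like cells was not (16.9%, 22.6% and 23.4%). The order of the libraries varied among the other classes. KO HFD was the lowest in tenocyte-like cells (563, 678 and 327 CPM), between the WT libraries in MuSC-like cells (38.0, 11.5 and 32.1 CPM) and the highest in monocyte-like cells (224, 327 and 451 CPM). It is called the library labelled KO HFD, or KO HFD, throughout.

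The members fell into groups by the cells that held them (plot of the members by cell class). Of all UMIs of each gene, FAP-like cells held 87.7% for *Timp1*, 82.8% for *Timp2*, 94.9% for *Mmp2*, 96.4% for *Mmp3* and 90.3% for *Mmp14*. The same cells held 57.8% of the UMIs of all genes. *Timp3* was split between FAP-like cells (66.3%), lymphatic-like cells (13.4%) and endothelial-like cells (9.37%). *Timp4* came mostly from endothelial-like cells (81.8%), *Mmp12* from macrophage-like cells (93.6%), and *Mmp9* from macrophage-like (68.3%) and neutrophil-like (21.7%) cells. *Mmp19* was split between FAP-like (59.2%) and macrophage-like (32.6%) cells.

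**Figure D1:**
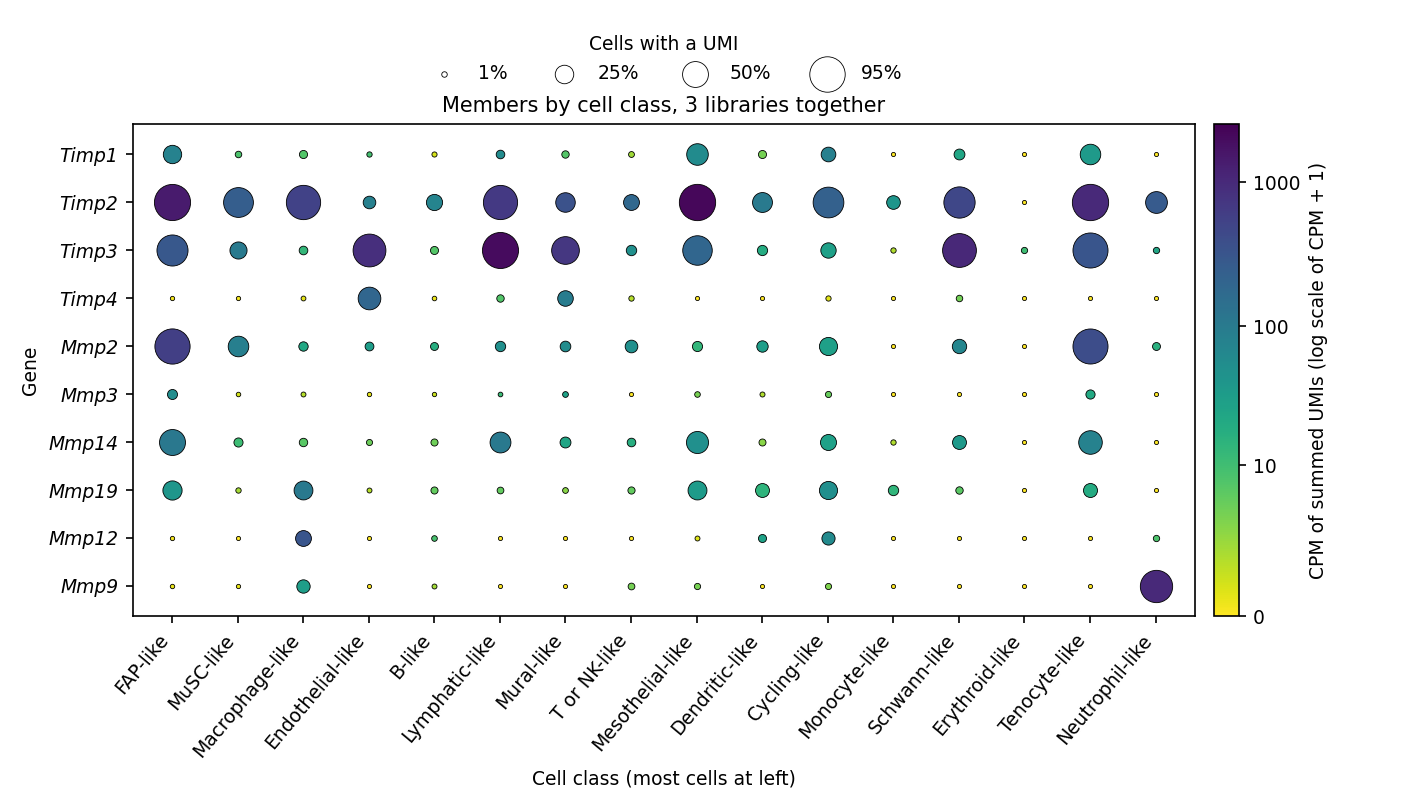
Members (rows) in 16 named cell classes (columns, most cells at left), all 3 libraries together; the colour of a point is the CPM of summed UMIs on a log scale of CPM + 1, and its area is the share of cells with a UMI. In the main clustering *Mmp2* and *Mmp3* stood highest in FAP-like cells, and *Mmp14* in FAP-like and lymphatic-like cells. *Timp3* stood highest in lymphatic-like cells, *Timp4* in endothelial-like cells, *Mmp12* in macrophage-like cells and *Mmp9* in neutrophil-like cells.

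Among the inhibitors, *Timp1* showed the widest difference between libraries. The gene (chrX:20870166-20874735, plus strand, inside *Syn1*, which runs on the other strand with its exons apart) encodes a secreted inhibitor known to be induced by cytokines and growth factors. In FAP-like cells it stood at 44.7 CPM in WT CD (interval 41.8 to 47.8), 108 in WT HFD (103 to 112) and 87.2 in KO HFD (83.3 to 91.3). The intervals of the 3 libraries did not overlap, with both HFD libraries above WT CD. They leave out spread between cells, and the variance of *Timp1* UMIs per FAP-like cell was 6.45, 26.1 and 30.4 times its mean. Counting error alone would make variance and mean equal. The gaps between libraries were not set against that spread. WT HFD was 2.41-fold above WT CD (log2 1.27, interval 1.15 to 1.38), and KO HFD was below WT HFD by a log2 ratio of -0.30 (-0.40 to -0.21). Of 5773 genes with at least 20 CPM in FAP-like cells of either WT library, *Timp1* ranked 3 by the size of its rise, and 34 genes (0.589%) were at least 1.5-fold higher in WT HFD, of 71 (1.23%) past that fold in either direction. It was the 1 member past that fold among the 7 measured at this level. No member was at least 1.5-fold lower, against 37 genes (0.641%) among all. Both comparisons use the WT HFD library.

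The share of FAP-like cells with a *Timp1* UMI was 20.3% in WT CD, 31.1% in WT HFD and 23.3% in KO HFD, at median depths of 8444.5, 9171 and 8382 UMIs. Thinned shares, here and below, come from 3000 UMIs drawn from each cell that had as many, leaving out shallower cells (57, 23 and 44 FAP-like cells). They were 9.90%, 14.6% and 11.1%, in the same order of libraries. Endothelial-like cells, which have little *Timp1*, gave 0.375%, 0.847% and 1.46% at lower median depths of 3346, 3536.5 and 3326 UMIs. Their thinned shares were 0%, 0.645% and 0.855%, leaving out 105, 81 and 88 shallower cells. Macrophage-like cells gave 4.76%, 2.43% and 4.55% at median depths of 9991, 9427.5 and 9367 UMIs. The share in FAP-like cells lay above both classes in each library. The transcript was uneven from cell to cell. A positive FAP-like cell held a median of 1 UMI, yet single cells reached 49, 104 and 120 UMIs, and the 1% of FAP-like cells with the most *Timp1* held 28.2%, 42.2% and 46.5% of its UMIs. Without that 1%, the log2 ratio of WT HFD to WT CD was 0.96, a setting chosen after the data had been seen.

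Other classes with *Timp1* rested on few cells. Tenocyte-like cells stood at 35.2 CPM over all libraries, with 31.0% of 58 cells positive. Mesothelial-like cells, the lining of the muscle surface, stood at 36.9, 67.9 and 59.8 CPM with 34.4% of 180 cells positive. Their 3 intervals overlapped those of their neighbours in the order (21.9 to 58.4, 52.3 to 86.7, and 41.2 to 84.0). The 115 CPM of lymphatic-like cells in WT HFD came from 98 UMIs, of which 1 cell held 90. Cycling cells stood at 12.5 CPM in WT CD, on 5 UMIs, 137 in WT HFD and 72.8 in KO HFD. In the HFD libraries 1 cell held 53.4% and 73.5% of the UMIs. FAP-like and cycling cells (79.5 and 83.3 CPM over all libraries) therefore could not be ranked for *Timp1*, and neither could lymphatic-like and mesothelial-like cells (58.9 and 58.0).

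**Figure D2:**
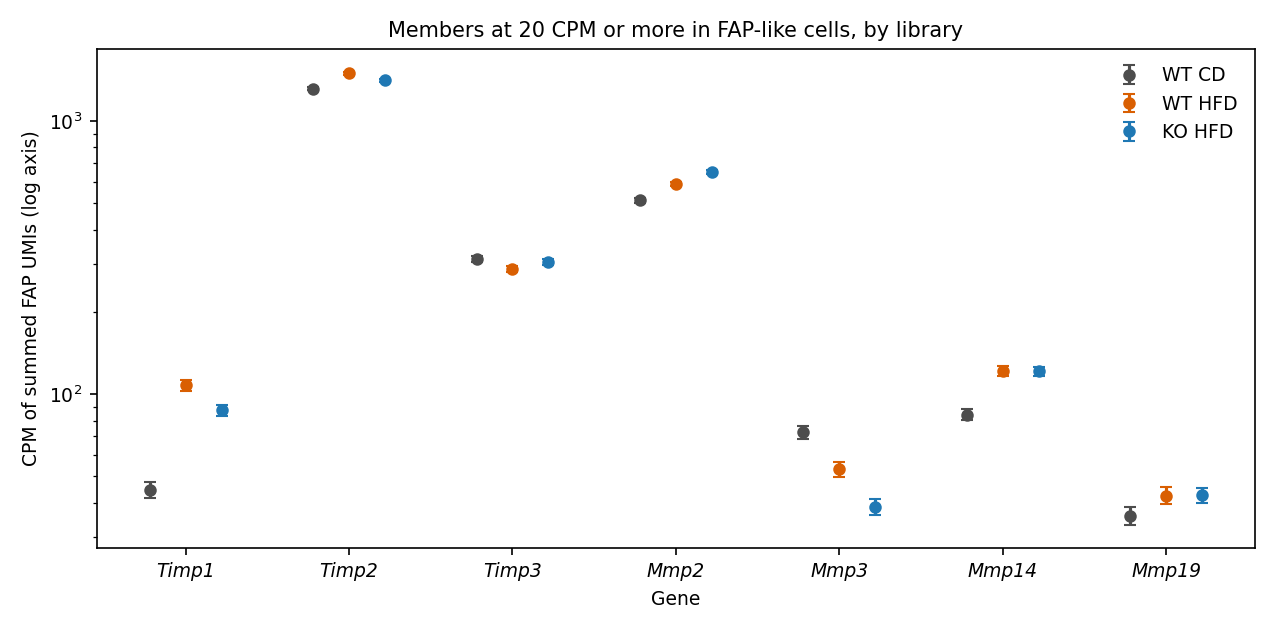
CPM of summed UMIs in FAP-like cells (log axis) for the 7 members with at least 20 CPM there; points are libraries (WT CD grey, WT HFD orange, KO HFD blue) and bars are 95% counting intervals. *Timp1*, *Timp2*, *Mmp2*, *Mmp14* and *Mmp19* were lowest in WT CD. *Mmp3* was highest in WT CD and lowest in KO HFD, and *Timp3* lay between 287 and 313 CPM in all 3.

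*Timp2* (chr11:118301069-118355740, minus strand) encodes a secreted inhibitor that also takes part in activating pro-MMP2 at the cell surface, together with MT1-MMP, the product of *Mmp14*. In FAP-like cells it stood at 1312 CPM in WT CD, 1495 in WT HFD and 1410 in KO HFD. These lay close together, with log2 ratios of 0.19 (WT HFD to WT CD) and -0.08 (KO HFD to WT HFD). Nearly every FAP-like cell had it (99.0%, 99.5% and 99.2%). Mesothelial-like cells stood higher, at 2123, 2112 and 2266 CPM, and tenocyte-like cells lower, at 1003, 1065 and 987 CPM. Lymphatic-like cells followed at 543, 703 and 770 CPM, and macrophage-like cells at 366, 731 and 475 CPM. In muscle stem cell (MuSC)-like cells the levels were 250.2, 264 and 236 CPM, and their intervals overlapped.

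*Timp3* (chr10:86300372-86349506, plus strand) encodes the inhibitor that is held in the matrix, and known to act on ADAM proteases as well as MMPs. Its highest level was in lymphatic-like cells, at 1843 CPM in WT CD, 2177 in WT HFD and 1923 in KO HFD. Schwann-like cells (1177, 1109 and 960 CPM) and endothelial-like cells (872, 926 and 819 CPM) came next over all libraries, and the KO HFD values of these classes had overlapping intervals (831 to 1103 and 759 to 882). Mural-like cells, whose libraries were not compared for the reason given with *Timp4*, stood at 729 CPM over all libraries. FAP-like cells held 313, 287 and 305 CPM, a log2 ratio of -0.12 for WT HFD to WT CD and 0.09 for KO HFD to WT HFD. The gene lies within *Syn3*, which runs on the other strand with exons that overlap. *Syn3* itself stood at 44.3 CPM in lymphatic-like and 46.8 CPM in Schwann-like cells, and its part in the *Timp3* counts was not tested.

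*Timp4* (chr6:115241892-115252205, minus strand, inside *Syn2* on the other strand with exons that overlap) encodes a secreted inhibitor, and was an endothelial gene in these libraries. Endothelial-like cells stood at 161 CPM in WT CD (138 to 187), 226 in WT HFD (197 to 258) and 208 in KO HFD (178 to 241), with 38.1% of 708 cells positive (32.5% when thinned, leaving out 274 shallower cells). The HFD libraries overlapped each other, and the log2 ratio of WT HFD to WT CD was 0.49 (0.19 to 0.78). Mural-like cells stood at 128, 121 and 47.0 CPM, with 67.9% of the WT HFD UMIs in 1 cell. That cluster was led by *Vwf*, *Aqp1* and *Plvap* as well as by *Rgs5* and *Acta2*, so the libraries were not compared in it. FAP-like cells held 8 *Timp4* UMIs in all, in 6 of 6600 cells. A floor of 3 UMIs there is 0.152, 0.160 and 0.143 CPM by library.

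Of the proteases made by FAPs, *Mmp2*, *Mmp14* and *Mmp19* were higher and *Mmp3* lower in both HFD libraries than in WT CD. The 250 bases before the start sites of *Mmp3*, *Timp1* and *Mmp14* are shown, as these 3 members differed most between libraries in FAP-like cells. Capitals mark the matches to 3 motifs, each searched on both strands, and no matches overlapped. The AP-1 site was TGANTCA. The TATA box was searched as TATAAA. For the GC box the letters were GGGCGG.
Mmp3, chr9:7445572-7445821, plus strand: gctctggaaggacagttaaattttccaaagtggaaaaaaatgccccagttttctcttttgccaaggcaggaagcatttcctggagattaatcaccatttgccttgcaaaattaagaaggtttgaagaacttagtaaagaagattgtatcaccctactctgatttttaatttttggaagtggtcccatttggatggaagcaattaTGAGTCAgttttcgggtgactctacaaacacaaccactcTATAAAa
Timp1, chrX:20869916-20870165, plus strand: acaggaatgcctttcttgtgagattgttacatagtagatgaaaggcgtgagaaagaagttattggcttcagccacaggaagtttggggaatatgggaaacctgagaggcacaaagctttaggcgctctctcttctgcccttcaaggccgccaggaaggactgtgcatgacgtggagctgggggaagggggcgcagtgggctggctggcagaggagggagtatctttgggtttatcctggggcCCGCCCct
Mmp14, chr14:54431348-54431597, plus strand: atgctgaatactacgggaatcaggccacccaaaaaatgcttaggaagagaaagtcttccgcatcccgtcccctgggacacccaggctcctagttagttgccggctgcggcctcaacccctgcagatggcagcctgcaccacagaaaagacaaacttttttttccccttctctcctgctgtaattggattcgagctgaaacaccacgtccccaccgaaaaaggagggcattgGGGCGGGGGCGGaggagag
These are RefSeq promoter sequences of build GRCm38.p6, in which 7 of the 10 members had an entry. The *Mmp3* window held an AP-1 site 46 to 40 bases before the start and a TATA box next to the start. The *Timp1* window held 1 GC box and the *Mmp14* window 2. Of the other members with an entry, the second of 2 *Mmp12* starts held an AP-1 site 44 to 38 bases before it, and *Timp2* and *Timp3* each held 1 GC box. Of 32851 promoter windows of this length, 6.75% held the AP-1 letters, 12.4% the TATA box and 32.7% the GC box. A match in these windows is a run of letters, not a measured binding site.

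*Mmp14* (chr14:54431612-54445364, plus strand) encodes MT1-MMP, a membrane-bound protease that cuts fibrillar collagen and activates pro-MMP2. In FAP-like cells it stood at 84.1 CPM in WT CD (80.1 to 88.2), 122 in WT HFD (117 to 127) and 121 in KO HFD (117 to 126). WT CD stood apart from the HFD libraries, which overlapped. WT HFD was 1.45-fold above WT CD (log2 0.53, interval 0.44 to 0.63), under the 1.5-fold line, at rank 51 of 5773. KO HFD and WT HFD gave a log2 ratio of -0.01 (-0.09 to 0.08). The share of positive cells was 43.2%, 56.2% and 52.5%, or 20.3%, 27.6% and 27.8% after thinning. Lymphatic-like cells had a like level, at 56.1, 141 and 86.8 CPM, on 22, 120 and 47 UMIs, and over all libraries the classes could not be ranked (109.0 CPM, 106 to 112, and 106.0 CPM, 91.4 to 122).

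*Mmp3* (chr9:7445822-7455975, plus strand) encodes stromelysin-1, a secreted protease of broad substrate range that also activates other pro-MMPs. In FAP-like cells it stood at 72.4 CPM in WT CD (68.7 to 76.3), 53.2 in WT HFD (49.9 to 56.6) and 38.6 in KO HFD (35.99 to 41.4). The intervals did not overlap, but they leave out spread between cells. The variance of *Mmp3* UMIs per FAP-like cell was 29.8, 30.7 and 34.6 times its mean. The log2 ratio was -0.45 (-0.56 to -0.33) for WT HFD to WT CD and -0.46 (-0.60 to -0.33) for KO HFD to WT HFD. Neither passed 1.5-fold. Among the 5806 genes compared between the HFD libraries, 41 (0.706%) passed that fold (0.465% higher and 0.241% lower in KO HFD) and none was a member. Only 425 FAP-like cells had an *Mmp3* UMI (7.41%, 6.98% and 5.09% of each library, 5.44%, 4.97% and 3.49% when thinned), against 1 of 708 endothelial-like cells at a median of 3438 UMIs. The 1% of FAP-like cells with the most *Mmp3* held 55.6%, 60.4% and 66.4% of its UMIs, and single cells reached 98, 110 and 113. The levels thus rested in large part on few cells.

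*Mmp2* (chr8:92827291-92853420, plus strand) encodes gelatinase A, which cuts basement-membrane and denatured collagen. In FAP-like cells it stood at 513 CPM in WT CD, 587 in WT HFD and 649 in KO HFD, with 92.2%, 94.9% and 94.7% of cells positive. The log2 ratios were 0.20 (WT HFD to WT CD) and 0.14 (KO HFD to WT HFD). MuSC-like cells, the myogenic stem cells of muscle, stood at 33.4 CPM in WT CD (25.8 to 42.6), 100.4 in WT HFD (86.4 to 116) and 115 in KO HFD (103 to 127). That was a log2 ratio of 1.59 (1.17 to 2.02), with 13.7%, 36.9% and 42.5% of cells positive (9.25%, 21.2% and 28.1% when thinned, leaving out 76, 14 and 16 shallower cells). In MuSC-like cells 19.1% of 4976 genes passed 1.5-fold between the WT libraries (15.4% higher and 3.64% lower in WT HFD), so *Mmp2* was 1 of many. Of the other 2 members measured there, *Timp3* was past 1.5-fold lower in WT HFD (126, 77.9 and 101 CPM) and *Timp2* was not past it. Between the HFD libraries 5.32% of genes passed (2.05% higher and 3.27% lower in KO HFD), and none of the 3 members did. FAP marker genes in MuSC-like cells summed to 145, 253 and 243 CPM in the same order of libraries, mostly *Dcn* (133, 221 and 211 CPM), with *Osr1* at 0 in both WT libraries. The part of carried-over FAP transcripts in the *Mmp2* difference was not tested.

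*Mmp14*, *Timp2* and *Mmp2*, are the 3 genes of the pro-MMP2 activation complex. All 3 had a UMI in 40.4% of FAP-like cells in WT CD, 54.0% in WT HFD and 50.3% in KO HFD. After thinning to 3000 UMIs the shares were 13.8%, 20.9% and 20.8%. Since *Timp2* and *Mmp2* were in nearly every FAP-like cell, these shares lie close to those of *Mmp14* alone at full depth (43.2%, 56.2% and 52.5%) and do not show that the genes go together. In MuSC-like cells the share over all libraries was 1.88%, in lymphatic-like cells 4.38%, and in macrophage-like cells, at a median depth of 9546 UMIs, 2.03%.

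*Mmp19* (chr10:128790910-128800824, plus strand, with exons that overlap *Tmem198b* on the other strand), which encodes a secreted protease of basement-membrane proteins, was found in FAP-like and in macrophage-like cells, as was *Timp2*. FAP-like cells stood at 35.7, 42.5 and 42.6 CPM, with overlapping intervals for the HFD libraries (39.6 to 45.6 and 39.9 to 45.5). Macrophage-like cells stood at 120 CPM in WT CD (108 to 134), 78.3 in WT HFD (70.2 to 86.9) and 119.8 in KO HFD (111 to 129). WT HFD was the low library in these cells, whereas WT CD was the low library in FAP-like cells.

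FAP-like cells were split into 11 sub-clusters made without the members and without genes that differed between libraries. The 10 with at least 20 cells in each library were compared, leaving out 65 cells led by *Apod*, of which 6 were from WT HFD, and were named by a fixed marker or a leading gene (plot of shares in 10 FAP clusters). Over the 3 libraries together, *Timp1* ranged 11.1-fold and *Mmp3* 33.0-fold between the highest and the lowest of these clusters. The other 5 ranged less, *Mmp19* 3.54-fold, *Timp3* 3.18-fold, *Mmp2* 2.82-fold, *Timp2* 2.61-fold and *Mmp14* 2.30-fold. The size of these ranges depended on the clustering. With 5 k-means clusters *Timp1* ranged 5.08-fold and *Mmp3* 41.4-fold. Among 7 of the clusters made from all variable genes the ranges were 4.87-fold and 55.3-fold. The highest of these 7 for *Timp1*, the *Sfrp4*-state cluster, had 8 cells in WT HFD, under the 20 asked of the main clusters. Highest and lowest below are by the level over all 3 libraries, and single libraries could differ, as *Mmp3* in WT CD and *Mmp19* in WT HFD did.

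*Timp1* was highest in the *Sfrp4*-state cluster, at 129 CPM in WT CD, 601 in WT HFD and 310 in KO HFD on 65, 21 and 66 cells, with 1 cell holding 39.5% of the WT HFD UMIs. The *Dio2*-state cluster, led by *Postn*, *Dio2* and *Thbs4*, followed at 112, 207 and 262 CPM, and the *Gdf10*-state cluster at 87.6, 145 and 244 CPM. The cluster led by *Adm* was lowest at 18.0, 29.2 and 24.7 CPM. The share of *Timp1*-positive cells was higher in WT HFD than in WT CD in 10 of 10 clusters, also after thinning, and so was the CPM, also without the top cell of each cluster. The median share over the clusters was 18.5% in WT CD and 32.8% in WT HFD. In the cluster led by *Sult1e1*, *C4b* and *Aoc3* the share was 18.1%, 37.7% and 33.7%, and in the *Dpp4*-state cluster 16.6%, 31.5% and 21.1%. KO HFD had a lower share than WT HFD in 9 of 10 clusters (8 after thinning), the exception being the *Dio2*-state at 41.1% and 44.9%, and a lower CPM in 7 of 10.

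*Mmp3* followed other clusters. It was highest in the *Fmod*-state cluster, led by *Fmod*, *Sfrp2* and *Tnmd*, at 155, 168 and 149 CPM, and there the 3 intervals overlapped (142 to 169, 153 to 185 and 135 to 163). *Tnmd* is a tenocyte marker, so these 1127 cells, of 6600 FAP-like cells, were also left out as an alternative. The paper counts cells with *Fmod*, *Sfrp2* and *Tnmd* as a FAP subpopulation and reports no *Scx*, another tenocyte marker, in it. Whether the cells left out are tenocytes was not tested. Without them the *Mmp3* log2 ratios in FAP-like cells were -0.70 for WT HFD to WT CD and -0.73 for KO HFD to WT HFD, both past 1.5-fold. The *Gdf10*-state cluster stood at 200.4, 147 and 37.5 CPM and the *Dio2*-state cluster at 113, 29.1 and 69.6 CPM. It was near absent from the *Dpp4*-state cluster (4.79 CPM over all libraries) and the cluster led by *Ret* (4.75 CPM). Between the WT libraries, *Mmp3* CPM was lower in WT HFD in 7 of 10 clusters, while its share of positive cells was lower in 5 and higher in 5, and its thinned share was higher in WT HFD in 6 (median 4.43% against 3.83% in WT CD). KO HFD was below WT HFD in 9 of 10 clusters, by CPM and by share (8 by thinned share). These are counts of clusters from the same libraries, not of independent samples.

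The *Dpp4*-state cluster, at the other end for *Mmp3*, had the most *Timp2* (2135, 2376 and 2247 CPM) and *Timp3* (565, 503 and 580 CPM) of these clusters. It had the least *Mmp2* (337, 420 and 416 CPM), a gene that was highest in the *Sfrp4*-state cluster (1191, 1087 and 1010 CPM). *Mmp14* was high in the *Agt*-state cluster at 122, 172 and 178 CPM and in the cluster led by *Sult1e1* at 97.3, 181 and 190 CPM, which was above the former in both HFD libraries. The *Mmp14* CPM was higher in WT HFD than in WT CD in 10 of 10 clusters. Without the top cell of each cluster it was higher in 9, as was the share. In KO HFD the CPM was above WT HFD in 6 clusters and below in 4 (5 and 5 without the top cells). The share was above in 3 and below in 7. *Mmp19* was highest in the *Sfrp4*-state cluster at 104, 34.5 and 87.6 CPM. With all variable genes the *Sult1e1*-led cluster was highest for *Mmp14*. With k-means the highest cluster was led by *Cmah*, *Sbsn* and *Efhd1* for *Mmp14*, by *Sfrp2*, *Fmod* and *Tnmd* for *Mmp2*, and by *Col6a5*, *C4b* and *Trf* for *Mmp19*.

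**Figure D3:**
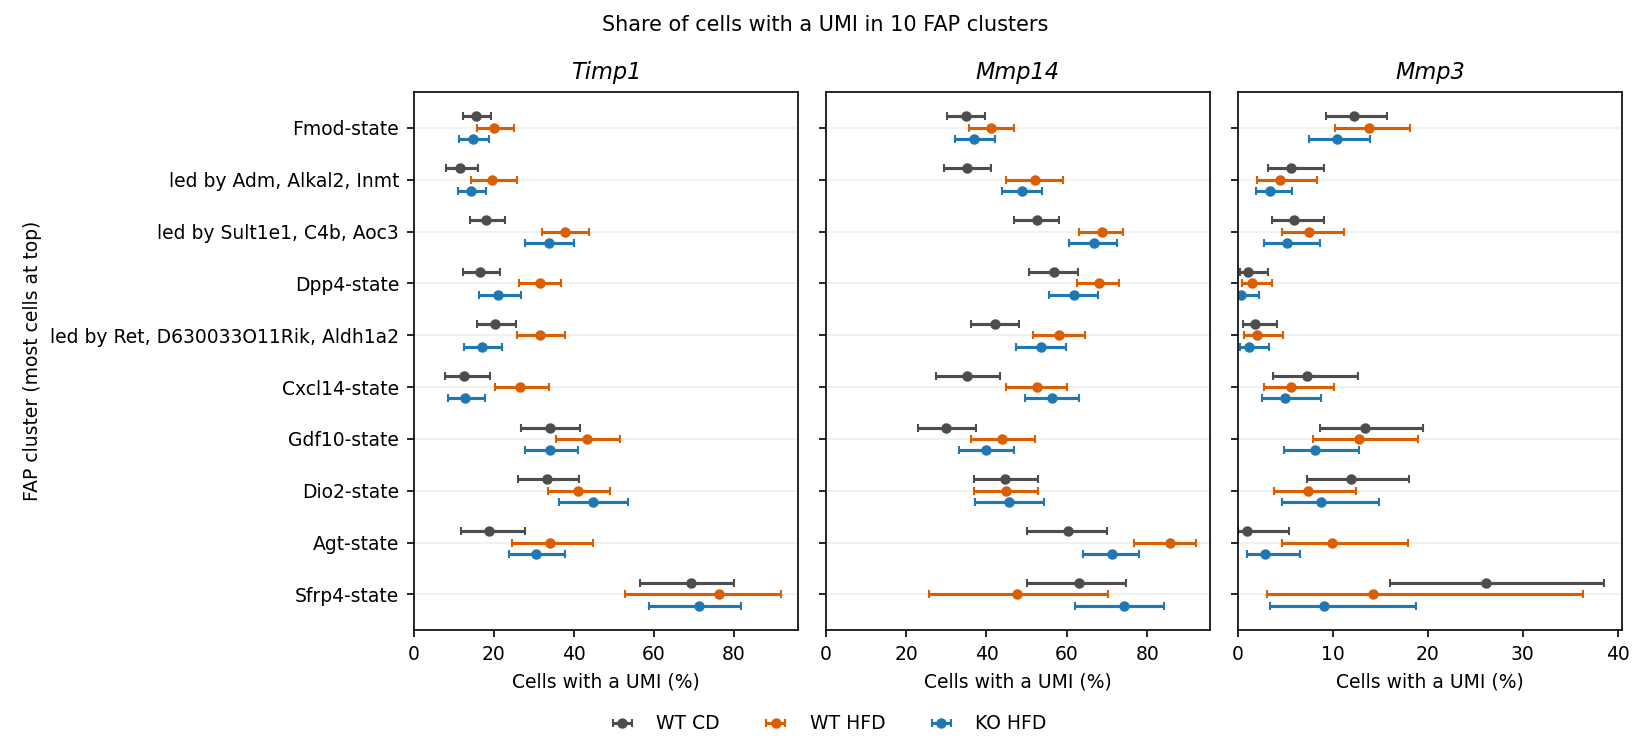
Share of cells with a UMI of *Timp1*, *Mmp14* and *Mmp3* (x axes, percent, each with its own scale) in the 10 FAP clusters with at least 20 cells per library; points are libraries and bars exact 95% binomial intervals. For *Timp1* the WT HFD point lies right of the WT CD point in every cluster shown, for *Mmp14* in 9 of 10, and for *Mmp3* in 5 of 10.

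Markers of other cell types were present in FAP-like cells at these levels. The 6 macrophage markers summed to 11.2, 13.4 and 14.2 CPM, the 5 endothelial markers to 26.5, 22.3 and 26.4 CPM, and the 5 neutrophil markers to 0.760, 0.214 and 0.620 CPM. The 5 tenocyte markers summed to 122, 143 and 156 CPM, led by *Cpxm2*, lowest in WT CD and highest in KO HFD. The 10 genes known to respond to tissue dissociation and stress had a median log2 ratio of -0.26 for WT HFD to WT CD and 0.36 for KO HFD to WT HFD, against 0.09 and -0.05 for all genes. *Hspa1a* stood at 322, 159 and 226 CPM and *Hspa1b* at 261, 121 and 173 CPM, both past 1.5-fold lower in WT HFD, against 0.641% of all genes. The part of handling stress in the differences of *Timp1*, *Mmp3* and *Mmp14* was not tested.

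Over the 7 members the median log2 ratio was 0.20 for WT HFD to WT CD and -0.01 for KO HFD to WT HFD. Of 17 other MMP genes looked for, 16 were in the count table and 2 reached 20 CPM in FAP-like cells. *Mmp23* stood at 246, 231 and 242 CPM and *Mmp11* at 16.4, 21.6 and 17.9 CPM, neither past 1.5-fold. The log2 ratio of *Mmp11* for WT HFD to WT CD was 0.40. Of 23 genes for activators, inhibitors and clearance receptors, 16 reached 20 CPM and none passed 1.5-fold, with median log2 ratios of 0.06 and -0.01. Some genes differed more than several members did, such as *Plau*, the urokinase that activates plasminogen (log2 ratio 0.41 for WT HFD to WT CD), and *Cd44*, the hyaluronan receptor (-0.38 for KO HFD to WT HFD). Both of these were chosen after their values were seen. Among the most abundant, *Cd63*, a cell-surface partner of TIMP1, stood at 1170, 1215 and 1183 CPM. *Lrp1*, the receptor that clears MMP and TIMP complexes, stood at 1004, 1047 and 1119 CPM, and *Pcolce*, an enhancer of procollagen processing, at 837, 872 and 848 CPM. *Pcsk6*, a proprotein convertase, stood at 448, 551 and 522 CPM, and *Bsg*, which encodes the MMP inducer basigin, at 444, 430.2 and 439.7 CPM.

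The matrix genes on which these enzymes act had a higher median in WT HFD than all genes had. Of 22 looked for, 21 reached 20 CPM, with median log2 ratios of 0.35 for WT HFD to WT CD and -0.16 for KO HFD to WT HFD. *Col4a1*, a basement-membrane collagen, was the 1 of 21 past 1.5-fold, against 0.589% of all genes higher in WT HFD, at 407 CPM in WT CD, 616 in WT HFD and 542 in KO HFD. *Col3a1*, a fibrillar collagen, stood at 2646, 3612 and 3012 CPM, and *Col1a2* at 2173, 2679 and 2543 CPM. *Sparc*, a collagen-binding glycoprotein, stood at 2669, 3632 and 3059 CPM and *Fn1*, fibronectin, at 760.4, 1080 and 1034 CPM. *Dcn*, the proteoglycan decorin, went the other way, at 16417, 14281 and 15763 CPM.

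In macrophage-like cells 5 members reached 20 CPM. Between the WT libraries *Timp2* and *Mmp12* were at least 1.5-fold higher and *Mmp9* and *Mmp19* at least 1.5-fold lower in WT HFD, in a class where 10.5% of 5088 genes passed that fold (6.27% higher, 4.21% lower). Between the HFD libraries *Mmp19* was higher and *Timp2* lower in KO HFD, where 5.82% of 5035 genes passed (2.44% higher, 3.38% lower). The macrophage libraries differed in make-up, so each gene was read within 7 sub-clusters (plot of members in macrophage clusters). The cavity-state cluster, led by *Alox15*, *Prg4* and *Saa3*, had 8, 53 and 14 cells, and the lipid-associated cluster, led by *Gpnmb* and *Spp1*, had 0, 23 and 27 cells.

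*Mmp12* (chr9:7344381-7369499, plus strand, with exons that overlap *Mmp1b* on the other strand) encodes macrophage elastase, a secreted protease that degrades elastin. Macrophage-like cells stood at 177 CPM in WT CD (162 to 193), 346 in WT HFD (329 to 364) and 361 in KO HFD (345 to 378). The log2 ratio was 0.97 (0.82 to 1.12) for WT HFD to WT CD and 0.06 (-0.04 to 0.16) for KO HFD to WT HFD. The share of positive cells had another order, at 15.6%, 12.9% and 23.9% (10.5%, 9.55% and 15.4% when thinned), lowest in WT HFD and highest in KO HFD. Single cells weighed on the level, and in WT HFD 4 cells held 40.1% of the UMIs. Most of it lay in 2 clusters. The lipid-associated cluster held 2273 CPM in WT HFD (2121 to 2434) and 1551 in KO HFD (1450 to 1658). The cluster led by *Cd226*, *Aldh1a2* and *Upb1* held 366, 607 and 425 CPM on 78, 61 and 126 cells. KO HFD was below WT HFD in both, while the class as a whole had overlapping intervals in the HFD libraries. The cluster led by *Ms4a4c* held 0, 69.0 and 179 CPM, with KO HFD the highest library. The *Folr2*-state cluster had 2 *Mmp12* UMIs in 255 cells.

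*Mmp9* (chr2:164940780-164955850, plus strand) encodes gelatinase B, a protease that neutrophils store in granules. Neutrophil-like cells stood at 1612 CPM in WT CD (1176 to 2157), 610.1 in WT HFD (387 to 916) and 984 in KO HFD (745 to 1274), on 13, 19 and 25 cells. The HFD intervals overlapped, and WT CD lay above WT HFD. In KO HFD these cells also held 1588 CPM of *Dcn*, which was at 0 in the WT libraries. Macrophage-like cells stood at 58.5 CPM in WT CD (49.9 to 68.3), 18.7 in WT HFD (14.9 to 23.1) and 28.0 in KO HFD (23.7 to 32.8), a log2 ratio of -1.65 (-2.05 to -1.26) for WT HFD to WT CD. The log2 ratio of KO HFD to WT HFD was 0.58 (0.19 to 0.99), just under 1.5-fold. The 5 neutrophil markers in macrophage-like cells summed to 12.3, 23.2 and 34.9 CPM. The part of carried-over neutrophil transcripts in these *Mmp9* levels was not tested.

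Within macrophage-like cells *Mmp9* was highest in the *Folr2*-state cluster, led by *Ccl8*, *Cd209f* and *Lyve1*. It stood there at 338 CPM in WT CD (276 to 408), 69.1 in WT HFD (51.3 to 91.1) and 126 in KO HFD (102 to 154). The share of positive cells was 53.5% of 43, 23.3% of 103 and 25.7% of 109. FAP-like cells, which should lack the gene, had a UMI in 0.135%, 0.304% and 0.125% of cells at similar median depths. The cluster led by *Ms4a4c*, *Il1b* and *Ccl4* showed the same order, at 102, 10.6 and 15.8 CPM on 25, 18 and 39 cells.

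*Mmp19* in macrophages followed the *Cd226*-led cluster (237, 223 and 208 CPM) and the lipid-associated cluster (173 and 184 CPM in the HFD libraries). Within each of these the intervals overlapped between libraries, and the other 5 clusters lay at or under 65.9 CPM. *Timp2* was highest in the cavity-state cluster (1067, 1337 and 1262 CPM) and the *Folr2*-state cluster (742, 981 and 884 CPM), and low in the *Cd226*-led cluster (216, 253 and 244 CPM). For KO HFD to WT HFD the class log2 ratios were -0.62 for *Timp2* and 0.61 for *Mmp19*. Without the cavity-state cluster they were -0.43 and 0.41, and neither gene passed 1.5-fold. For WT HFD to WT CD the *Timp2* ratio was 0.82 without that cluster, and that of *Mmp19* moved from -0.62 to -0.41, no longer past 1.5-fold, leaving 3 members past it in place of 4. Macrophage-like cells showed *Mmp2* at 27.1, 19.6 and 20.8 CPM beside 568, 497 and 454 CPM of *Dcn*. Leaving out the 3 sub-clusters led by genes of other classes (75 cells) took *Mmp2* to 0.835, 0.252 and 1.06 CPM. It also took *Mmp9* for KO HFD to WT HFD to a log2 ratio of 0.60, past 1.5-fold, so that 3 members passed in place of 2. Both of these settings were added after the data had been seen.

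**Figure D4:**
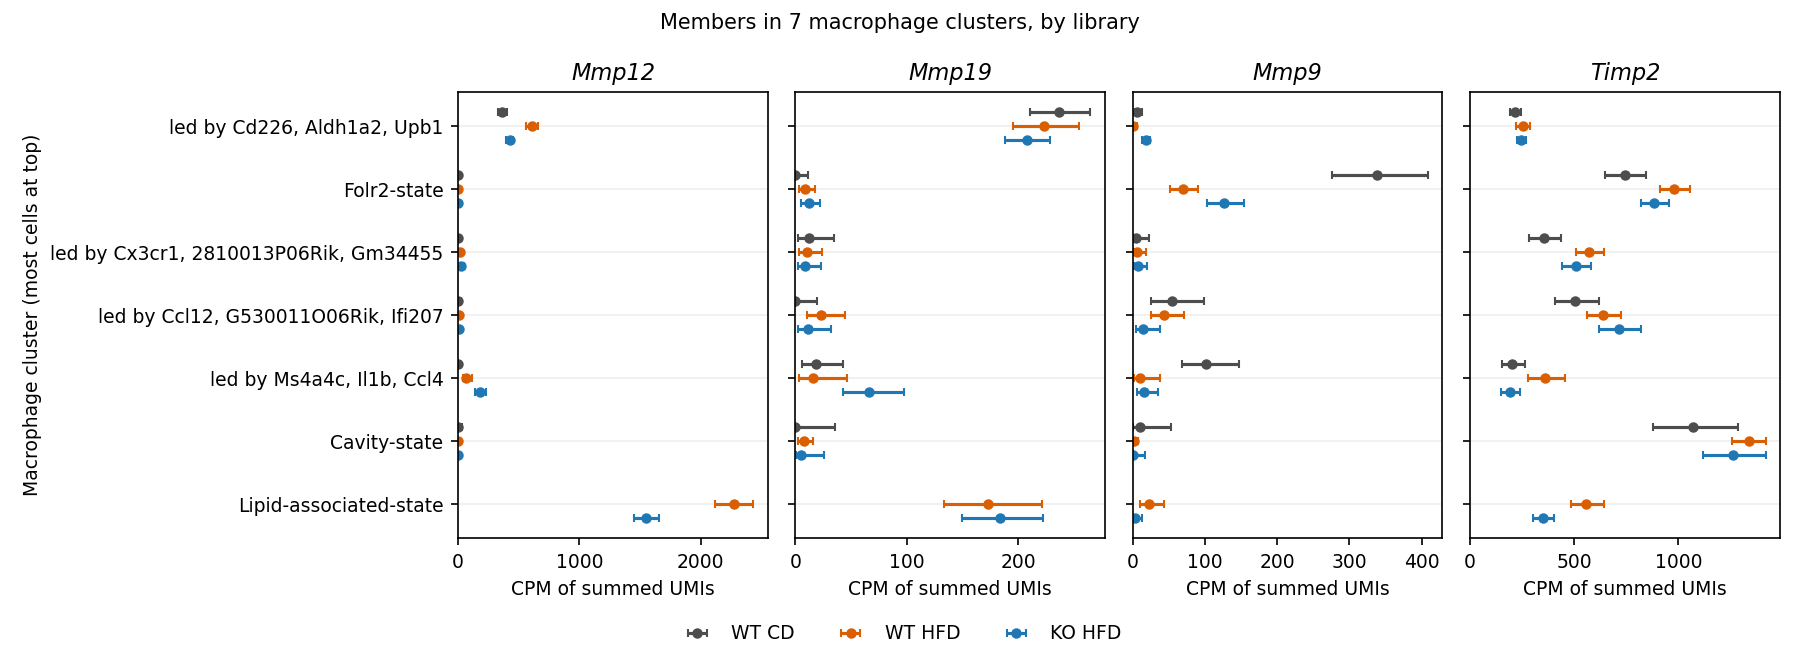
CPM of summed UMIs of *Mmp12*, *Mmp19*, *Mmp9* and *Timp2* (x axes, each with its own scale) in 7 macrophage clusters, by library, with 95% counting intervals; the lipid-associated cluster had no WT CD cells. *Mmp12* stood highest in the lipid-associated cluster, *Mmp9* in the *Folr2*-state cluster, where WT CD lay above both HFD libraries, and *Timp2* in the cavity-state cluster.

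In endothelial-like cells *Timp2* was higher in WT HFD than in WT CD (89.4 and 54.4 CPM), 1 of 4 members measured, in a class where 13.3% of 6205 genes passed 1.5-fold (8.33% higher, 4.98% lower). It stood at 121 CPM in KO HFD, and 7.87%, 12.3% and 13.2% of cells were positive. FAP markers in the same cells summed to 985, 705 and 1092 CPM, mostly *Dcn*, and the part of carried-over FAP transcripts in the *Timp2* level was not tested. Between the HFD libraries 941 of 6271 genes passed there (15%, of which 6.46% higher and 8.55% lower), with *Timp1* as the 1 member of 5, on 24 UMIs in KO HFD, of which 1 cell held 22.

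The genes whose levels ran closest to each member were found over 33 points (11 classes in 3 libraries), among 10898 genes. Points of 1 library share its depth and preparation, so the correlations of log2(CPM + 10) are descriptions. *Mmp12* ran closest to *Adgre1*, the macrophage marker F4/80 (Pearson r = 0.967), followed by *Arl11* and *C3ar1*. *Timp4* ran closest to *Tcf15* (0.980), *Syt7* and *Jag2*, and *Timp3* to *Clstn1* (0.958), *Ctnnb1* and *Myo6*. Among the genes held by FAP-like cells, *Mmp14* was nearest to *Abi3bp* (0.931), *P3h3* and *Fkbp10*. The nearest to *Mmp2* were *Pcolce2* (0.930), *Htra3* and *Col15a1*. *Timp2* was nearest to *Ang* (0.914), *Tmem53* and *Ltbp3*, and *Mmp3* to *Srpx* (0.883), *Sertad4* and *Mrc2*. *Timp1* had the weakest match of the 10, to *P3h1*, a collagen prolyl hydroxylase (0.835), *Vkorc1* and *Nid2*. *Mmp19* was nearest to *Ftl1* (0.879), *G6pdx* and *Hpgd*. *Mmp9* was nearest to *Mucl1* (0.946), *Apoc2* and *Slc13a3*, over points that did not include neutrophil-like cells.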

How the data were processed

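Single-cell RNA-Seq of mononuclear diaphragm cells gave 3 libraries, 1 per group (WT CD, WT HFD, KO HFD), named as GEO's labels give them. The deposited files hold raw counts of UMIs per gene and cell, which the authors made from the reads with Cell Ranger 6.1.1 (6.1.0 in the matrix headers) on mm10, with dead cells removed by flow cytometry beforehand. All deposited barcodes were kept. The members and gene lists were chosen with earlier results of these data known.

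Cells were clustered with scanpy 1.11.5 (2000 variable genes without the 10 members and the listed genes, 30 components, 15 neighbours, Leiden resolution 1) and named from marker genes. FAP-like and macrophage-like cells were clustered again at resolution 0.6. Scrublet called 1.26%, 1.09% and 1.33% of cells doublets, which stayed in, and clusters left unnamed held 2.81%, 2.78% and 2.98% of cells. UMIs were summed per class and library and given as CPM with exact Poisson intervals, shares with exact Clopper-Pearson intervals, and ratios of CPM with exact conditional intervals, all at 95%. With 1 library per group no test was made. Genes reaching 20 CPM in either library of a comparison were compared, and a difference was counted past 1.5-fold. Shares were repeated with cells thinned to 3000 UMIs. Every member is named. Of the other lists, genes past 1.5-fold or among the 5 most abundant are named, and for each member the 3 genes of most like level. Positions are from GENCODE vM21 (GRCm38). Alternatives included edgeR 4.0.16 TMM factors, other cluster resolutions, a marker gate, filters on cells and weighting FAP clusters alike. The scripts were tested on simulated data with counting error alone, which cannot show how the intervals hold under spread between cells or mice. Tools were Python 3.11.15, numpy 2.4.6, scipy 1.17.1 and R 4.3.3.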

Additional observations from a re-analysis of the deposited data

Results flagged for a closer look

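Within FAP-like cells some clusters moved in opposite directions between the HFD libraries, and none of these differences was tested. *Timp1* was higher in KO HFD than in WT HFD in the *Gdf10*-state cluster (log2 ratio 0.74) and lower in the *Cxcl14*-state (-1.72), the *Dpp4*-state (-1.23) and the cluster led by *Ret*, *D630033O11Rik* and *Aldh1a2* (-1.57). Single cells weighed on these values. In the *Gdf10*-state 1 cell held 33.0% of the KO HFD UMIs, and without the top cell of each library the levels were 78.8, 130.1 and 165 CPM for WT CD, WT HFD and KO HFD. In the *Dpp4*-state 1 cell held 33.7% of the WT HFD UMIs (23.2, 57.7 and 33.9 CPM without the top cells), and in the *Ret*-led cluster 36.1% (30.3, 72.0 and 31.3 CPM). The *Cxcl14*-state stood at 31.3, 50.9 and 17.0 CPM without them. Each of the 4 clusters thus kept its direction by CPM between the HFD libraries. In the *Gdf10*-state the share of positive cells went the other way, lower in KO HFD.

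*Mmp3* was higher in KO HFD in the *Dio2*-state (log2 ratio 1.26) and lower in the *Gdf10*-state (-1.97), a difference that was not tested either. In the *Dio2*-state 1 cell held 52.7% of the WT HFD UMIs. Without the top cells the levels were 77.0, 13.9 and 42.2 CPM there and 161, 102 and 31.0 CPM in the *Gdf10*-state.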

How the results depend on the processing

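No paired analysis was possible because each group had 1 library. In FAP-like cells, WT HFD to WT CD, 2 members in place of 1 passed 1.5-fold at Leiden resolution 0.5, without the *Fmod*-state cluster, which a tenocyte marker led, and without the 1% of FAPs with the most UMIs of each gene. The added member was *Mmp3* (log2 ratios -0.74, -0.70 and -0.61). For KO HFD to WT HFD, 1 member in place of 0 passed at Leiden resolution 2 (*Mmp3*, -0.63), without the *Fmod*-state cluster (-0.73) and without the 1% (-0.70). In macrophage-like cells 0 members in place of 2 passed for KO HFD to WT HFD without the cavity-state cluster, and 3 without the clusters led by genes of other classes. For WT HFD to WT CD 3 in place of 4 passed without the cavity-state cluster. At Leiden resolution 2 FAP-like cells had the highest level for 1 member (*Mmp14*) in place of 3, among classes with at least 100 cells. There *Mmp2* and *Mmp3* stood highest in tenocyte-like cells. These counts went by level alone, and in the main clustering the intervals of *Mmp14* in FAP-like and lymphatic-like cells overlapped. The cause of these moves was not tested. Over 11 alternatives the log2 ratio of *Timp1* for WT HFD to WT CD ran from 0.96 to 1.38 and that of *Mmp14* from 0.46 to 0.56, and for KO HFD to WT HFD *Timp1* ran from -0.42 to -0.27. *Mmp3* ran from -0.74 to -0.32 and from -0.73 to -0.42. *Mmp14* and *Mmp19* lay near 0 between the HFD libraries and took either sign. Of the counts, 24 alternatives stayed within their limits, as did 143 of the single ratios, and 31 ratios moved beyond their counting interval. The alternatives that left out macrophage clusters, the *Sfrp4*-state cluster or the top 1% of cells were chosen after seeing the data. The levels of *Timp4*, *Mmp12* and *Mmp9* in FAP-like cells rest on few UMIs. So does that of *Mmp9* in neutrophil-like cells, where depth is a limit too. Without replicate libraries no interval covers variation between mice.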
